A study of Mus musculus with 12 samples.

Results

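The nuclear genes of the respiratory chain were taken from the gene table by name: protein-coding genes whose symbol begins with Nduf, Uqcr, Cox4 to Cox8 or Atp5, or is Sdha, Sdhb, Sdhc or Sdhd, with at least 10 counts in 3 or more libraries. This gave 93 genes of 55487 gene IDs in the table, of which 20067 passed the same count rule. They comprise 36 genes counted as subunits of complex I, 4 of complex II, 8 of complex III, 18 of complex IV and 17 of complex V. A further 8 are complex I assembly factors of the Ndufaf series. The remaining 2, Cox5b-ps and Ndufb1-ps, are named as pseudogenes but annotated as coding, and were counted in no complex. Another 3 coding IDs matched by name and missed the count rule. These were Cox7b2, whose highest count was 7, Cox8c, whose highest count was 2, and a second Atp5o ID with no counts. Cox6a2, the weakest gene kept, reached 33 counts at most and had 10 counts or more in 9 of 12 libraries.

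The samples were whole kidneys of mice at postnatal day 15, sequenced in 12 libraries. The 3 libraries labelled Pkd1 KO have titles naming hoxpkd1homo, and their 3 controls have titles naming hoxpkd1het and the genotype label WT. The 3 libraries labelled Cep120 KO have titles naming hoxcep120homo, and their 3 controls have titles naming hoxcep120het and again the genotype label WT, so whether the controls carry 1 mutant allele is not settled by the labels. The design names Hoxb7-driven deletion in both lines. Hoxb7-Cre is active in the ureteric bud and its derivative, the collecting duct, so most tubule segments in a whole kidney are not targeted. Pkd1 encodes polycystin-1 of the primary cilium and Cep120 encodes a centriole protein, and the study asked which pathways are disturbed in cystic kidneys after loss of each. Nothing in the labels states that the 3 libraries in each group are separate animals, and p-values measure only how libraries spread, which may be technical.

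Library totals were 23070688 to 31837958 counts. In neither line did the targeted gene itself stand lower under its KO label, and in the libraries labelled Pkd1 KO, Pkd1 was called higher (log2 fold change 0.74, SE 0.20, edgeR adjusted p = 0.0095). Pkd1 was at 36.4, 26.2 and 23.9 CPM (counts scaled to library size) in libraries labelled Pkd1 KO against 16.1, 13.9 and 21.6 in Pkd1 controls, and Cep120 at 16.6, 20.4 and 16.6 CPM in libraries labelled Cep120 KO against 16.2, 18.7 and 13.7 in Cep120 controls. Whole-kidney RNA therefore did not check the labels, and every direction below rests on them. Libraries fell into a class with 30321 to 32740 genes detected (all of Cep120 KO, Cep120 controls 1 and 2, Pkd1 control 3) and a class with 23544 to 25665 (the remaining 6). Cep120 controls 1 and 2 differed from each other by a chi-squared of 5.8 per gene, against 28.35 to 76.54 in the other pairs within groups. Xist, which coats the inactive X chromosome in females, was present at over 1 CPM in all 6 controls and in Cep120 KO 3, and absent in the 3 Pkd1 KO libraries and in Cep120 KO 1 and 2. In the Pkd1 line, the label and Xist absence coincide in every library and cannot be told apart. Markers of kidney tubules were present in every library.

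The respiratory chain sits in the inner mitochondrial membrane. Complexes I and II pass electrons from NADH and succinate to ubiquinone, complex III passes them to cytochrome c, complex IV to oxygen, and complex V uses the proton gradient to make ATP. Most subunits are encoded in the nucleus and imported, and a small set is encoded by the mitochondrial genome. In the kidney the proximal tubule and the thick ascending limb are rich in mitochondria, since they reabsorb most of the filtered salt and solute.

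In Pkd1 KO kidneys nearly the whole set fell, in all 5 complexes and by similar amounts. Of 93 genes, 88 were called lower and 1 higher (edgeR adjusted p under 0.05), and 4 were not called. Over all 19890 genes tested, 22.4% were called lower, 22.1% higher and 44.4% in either direction. The median log2 fold change of the 93 genes was -1.13, against -0.04 over all genes tested. A fall of at least 2-fold was called for 61 of the 93, against 13.2% of all genes. In 88 genes all 3 Pkd1 KO libraries lay below all 3 Pkd1 controls, against 25.5% of all genes. Summed over the 93 genes, TPM (transcript abundance corrected for length and scaled to library size) was 41700, 44100 and 45900 in Pkd1 KO libraries and 83100, 89700 and 72200 in Pkd1 controls, a ratio of means of 0.538. The single gene called higher was Cox7a2l. With a term for Xist absent or present, only 6 of the 93 genes were called (Atp5g1, Cox6b2, Cox7b, Ndufab1, Ndufs1 and Uqcrc1, all lower). Over all 19890 genes 2002 were called with that term in either direction. The share of the 93 called was not above that of all genes, whose calls were not split by direction. With the term the median of the 93 stayed at -0.97. That term is estimated within the Cep120 KO group, where library 3 has Xist and libraries 1 and 2 lack it, and it was not applied to the marker and pathway lists that follow.

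Markers of several cell types moved with this result. Their calls are to be read against the 22.4% of all genes called lower and 22.1% called higher. All 10 proximal tubule markers were called lower in Pkd1 KO kidneys, and their summed level was 756 to 1160 CPM in Pkd1 KO libraries against 4380 to 6670 CPM in Pkd1 controls. Of 6 thick ascending limb markers 5 were lower (988 to 1570 CPM against 2730 to 3910 CPM in controls), and of 6 distal convoluted tubule markers 5 were lower (254 to 399 CPM against 1210 to 1480 CPM). All 6 principal cell markers were higher (1980 to 3520 CPM against 558 to 808 CPM), as were all 8 macrophage markers (1220 to 1800 CPM against 140 to 446 CPM) and 7 of 9 fibroblast markers (5480 to 8900 CPM against 1750 to 2920 CPM). Intercalated cell markers were mixed, with 4 lower and 1 higher of 6 (185 to 214 CPM against 184 to 356 CPM), and 5 of 6 endothelial markers were lower (208 to 261 CPM against 406 to 441 CPM). In whole kidneys, fewer cells of a type and less RNA per cell cannot be told apart, and the part of these shifts in the fall of the respiratory chain genes was not tested.

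**Figure D1:**
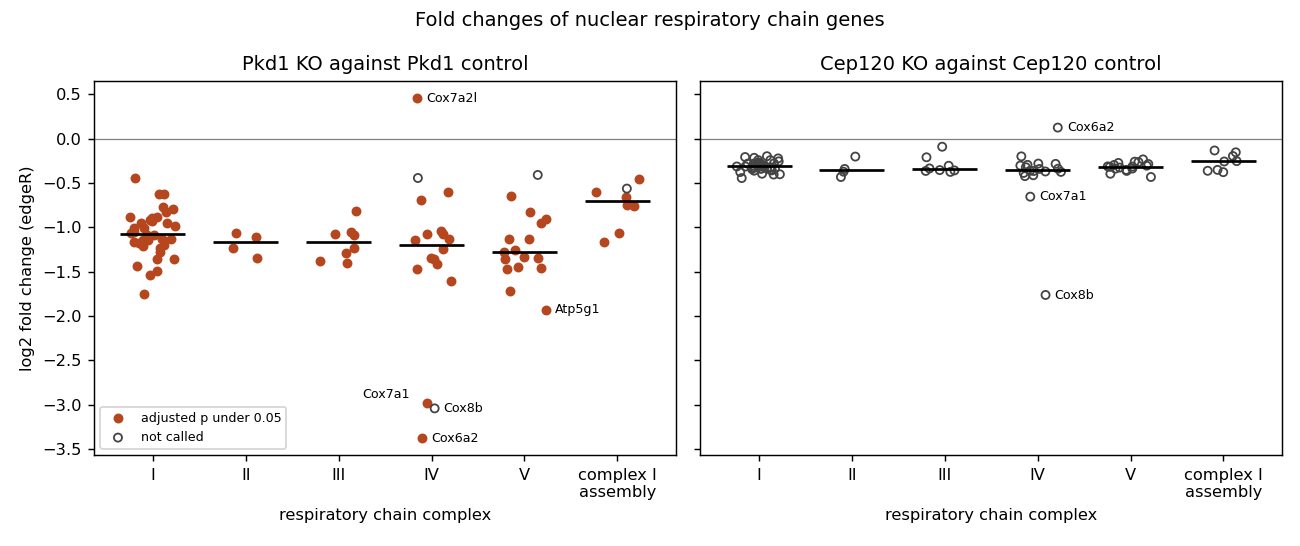
Log2 fold change (y axis, edgeR) of each nuclear respiratory chain gene by complex (x axis), for Pkd1 KO against Pkd1 control on the left and Cep120 KO against Cep120 control on the right; filled points passed an adjusted p of 0.05, open points did not, and bars are medians. In the Pkd1 line every complex has a median near or beyond -1 while Cox7a2l lies above 0; in the Cep120 line no point is filled and the members bunch around a median of -0.32.

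Promoter windows were compared because so many of these genes moved together. RefSeq promoters (build GRCm38.p6, 250 bases before to 50 after each start) were matched by name for 75 of the 93 genes, with 80 windows in all. A motif of NRF-1, a transcription factor of many mitochondrial genes, spelled GCGCA, any base N, then GCGC, was present on either strand in 25% of member windows and in 4.6% of all 32851 windows. The GABP motif CCGGAAG was in 23.8% of member windows and 8.86% of all, the YY1 motif AAGATGGC in 13.8% and 2.75%, and the oestrogen-related receptor motif TCAAGGTCA in 2.5% and 0.423%. The 4 motifs do not contain each other, and a window can hold several. None of the 4 motifs was found in 37 of the 80 member windows, among them those of Atp5g1, Atp5b, Cox5a and Ndufa4. A match describes letters only and is neither a binding site nor a cause. Of 80 windows, 16 have a start that was not found in the GENCODE transcripts, Atp5g1, Cox5a and Cox7a2l included. The windows printed here run from 170 bases before to 30 after the start. Ndufc1, Sdha, Uqcrc1, Cox6a1 and Atp5k were chosen to show matches in each complex, Ndufab1 and Cox7b to show windows of genes that fell and hold no match, and Cox7a2l as the gene that moved the other way. Capitals mark motif matches on either strand. They lie on GRCm38.p6 at chr3:51408926-51409125 (Ndufc1, minus strand), chr7:122101819-122102018 (Ndufab1, minus), chr13:74350211-74350410 (Sdha, minus), chr9:108936478-108936677 (Uqcrc1, plus), chr5:115348929-115349128 (Cox6a1, minus), chrX:106015530-106015729 (Cox7b, plus), chr5:108434370-108434569 (Atp5k, minus) and chr17:83514304-83514503 (Cox7a2l, minus).
Ndufc1: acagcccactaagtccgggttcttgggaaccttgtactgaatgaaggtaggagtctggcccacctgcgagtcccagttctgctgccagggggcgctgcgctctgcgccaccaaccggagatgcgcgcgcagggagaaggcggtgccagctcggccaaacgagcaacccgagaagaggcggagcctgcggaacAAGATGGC
Ndufab1: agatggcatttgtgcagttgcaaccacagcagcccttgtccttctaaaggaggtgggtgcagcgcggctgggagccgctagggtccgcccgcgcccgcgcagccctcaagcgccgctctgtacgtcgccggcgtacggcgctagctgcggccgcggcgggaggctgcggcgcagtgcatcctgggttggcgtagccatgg
Sdha: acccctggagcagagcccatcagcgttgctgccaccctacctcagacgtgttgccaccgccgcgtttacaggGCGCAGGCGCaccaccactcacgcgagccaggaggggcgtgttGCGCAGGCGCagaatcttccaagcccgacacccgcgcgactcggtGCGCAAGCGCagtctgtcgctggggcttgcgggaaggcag
Uqcrc1: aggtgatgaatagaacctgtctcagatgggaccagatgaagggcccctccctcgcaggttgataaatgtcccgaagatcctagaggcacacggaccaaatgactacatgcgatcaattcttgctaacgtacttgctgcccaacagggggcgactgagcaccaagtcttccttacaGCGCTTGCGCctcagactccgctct
Cox6a1: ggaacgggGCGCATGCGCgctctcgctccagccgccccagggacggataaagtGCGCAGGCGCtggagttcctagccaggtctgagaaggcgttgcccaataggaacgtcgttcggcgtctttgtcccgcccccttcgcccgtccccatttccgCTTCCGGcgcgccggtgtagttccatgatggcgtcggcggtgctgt
Cox7b: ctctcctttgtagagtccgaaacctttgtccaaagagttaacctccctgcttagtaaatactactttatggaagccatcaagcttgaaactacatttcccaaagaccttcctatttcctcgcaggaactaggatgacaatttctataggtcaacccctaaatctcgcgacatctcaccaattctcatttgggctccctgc
Atp5k: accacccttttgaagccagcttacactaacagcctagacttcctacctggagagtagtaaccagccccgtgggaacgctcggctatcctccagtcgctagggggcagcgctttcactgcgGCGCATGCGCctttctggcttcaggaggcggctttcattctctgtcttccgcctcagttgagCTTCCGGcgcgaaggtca
Cox7a2l: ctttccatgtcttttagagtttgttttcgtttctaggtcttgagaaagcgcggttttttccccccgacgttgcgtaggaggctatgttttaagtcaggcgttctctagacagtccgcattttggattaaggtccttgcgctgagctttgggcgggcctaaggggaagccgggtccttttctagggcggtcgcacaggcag
Sdha holds 3 NRF-1 matches, Cox6a1 and Atp5k hold NRF-1 and GABP matches, Uqcrc1 an NRF-1 match, and Ndufc1 a YY1 match at the right end. The Ndufab1, Cox7b and Cox7a2l windows hold none of these letters.

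Complex I takes electrons from NADH. All 36 genes counted as its subunits fell in Pkd1 KO kidneys (median log2 fold change -1.08), 22 of them at least 2-fold. Ndufb1-ps, not counted among the 36, was called lower as well. Ndufab1 (ENSMUSG00000030869), the mitochondrial acyl carrier protein that is also a subunit, had 81.7, 96.1 and 102 CPM in Pkd1 KO libraries and 268, 338 and 210 CPM in Pkd1 controls. The groups stood well apart, and Ndufab1 fell by 1.54 on the log2 scale (edgeR adjusted p = 3.9e-05, SE 0.19). Ndufs1 (ENSMUSG00000025968), the largest iron-sulphur subunit of the electron path, had 100, 108 and 126 CPM in Pkd1 KO libraries and 360, 361 and 219 CPM in controls, and fell by 1.49 on the log2 scale (SE 0.19). Ndufc1, a small accessory subunit, fell most among complex I genes, with 79.6, 93.6 and 109 CPM in Pkd1 KO libraries against 299, 424 and 224 CPM in controls and fell by 1.75 (SE 0.24). Ndufa5, another accessory subunit, fell by 1.44 (SE 0.21). Ndufv1, the core subunit that binds NADH, fell by 0.79 (SE 0.17). The smallest falls were those of Ndufa7 (log2 fold change -0.45, SE 0.17) and Ndufv3 (-0.62, SE 0.17).

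The 8 assembly factors of complex I, which build the enzyme and do not stay in it, had a median of -0.70, and 7 of 8 were called lower. Ndufaf4 fell the most, with 29.1, 31.2 and 34.2 CPM in Pkd1 KO libraries and 83.5, 77.7 and 51.4 CPM in Pkd1 controls (log2 fold change -1.17, SE 0.16, edgeR adjusted p = 9.4e-05). Ndufaf5 fell by 1.07 (SE 0.23), Ndufaf1 by 0.76 (SE 0.18) and Ndufaf3 by 0.75 (SE 0.17). Ndufaf6 was not called, with a log2 fold change of -0.56 and an SE of 0.36. The difference between assembly factors and subunits was not tested.

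Complex II, succinate dehydrogenase, has 4 subunits and all fell. Sdha, the flavoprotein that oxidizes succinate, had 364, 391 and 396 CPM in Pkd1 KO libraries and 894, 943 and 566 CPM in Pkd1 controls, and fell by 1.06 (SE 0.18). Sdhb, the iron-sulphur subunit, had 326, 387 and 366 CPM against 913, 1190 and 635 CPM in controls, and fell by 1.35 (SE 0.22). The membrane anchor Sdhc fell by 1.11 (SE 0.15), and its partner Sdhd fell by 1.23 (SE 0.18). In each of the 4 the groups did not overlap.

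Complex III passes electrons to cytochrome c, and all 8 of its subunits fell, with a median of -1.16. Uqcrb had 207, 223 and 238 CPM in Pkd1 KO libraries and 569, 767 and 435 CPM in Pkd1 controls, and fell by 1.41 (edgeR adjusted p = 9.5e-05, SE 0.19). The core subunit Uqcrc1 had 441, 524 and 512 CPM against 1210, 1180 and 761 CPM in controls, and fell by 1.09 (SE 0.18). The Rieske iron-sulphur protein Uqcrfs1 fell by 1.05 (SE 0.19), and the small subunits Uqcrq and Uqcr11 by 1.39 (SE 0.22) and 1.29 (SE 0.22). Uqcrh had the smallest fall, 0.82 (SE 0.20). Cyc1, the haem subunit of complex III outside the name rule, and Cycs, cytochrome c itself, fell by 1.27 (SE 0.20) and 1.79 (SE 0.22).

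Complex IV, cytochrome c oxidase, was the class with the widest spread. Of 18 genes 15 fell, 1 rose and 2 were not called. Cox7b had 143, 163 and 170 CPM in Pkd1 KO libraries and 437, 549 and 333 CPM in Pkd1 controls, and fell by 1.47 (SE 0.19, edgeR adjusted p = 5.7e-05). Ndufa4, first named as a complex I subunit and since placed in complex IV, had 236, 256 and 266 CPM against 764, 1000 and 550 CPM in controls, and fell by 1.61 (SE 0.21). Cox5a fell by 1.35 (SE 0.21), whereas Cox4i1, the subunit with the highest level per length in Pkd1 KO kidneys, fell by 0.60 (SE 0.19). Cox4i1 had 1130, 1320 and 1150 CPM in Pkd1 KO libraries and 1750, 2280 and 1430 CPM in controls, so the groups stood apart by a small margin.

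Several complex IV subunits have isoforms used in other tissues or conditions. Cox7a1, Cox6a2 and Cox8b are the isoforms of heart and skeletal muscle, and Cox7a1 and Cox8b are also found in brown fat. Cox7a1 had 5.18, 4.25 and 4.49 CPM in Pkd1 KO libraries and 38.7, 54.4 and 17.3 CPM in Pkd1 controls, and fell by 2.98 (edgeR adjusted p = 0.00016, SE 0.44). Cox6a2 was under 1.5 CPM in every library, and fell by 3.38 on the log2 scale (SE 0.77), a value that rests on few counts. Cox8b had 6.77, 0 and 1.4 CPM in Pkd1 KO libraries and 24, 38.7 and 4.91 CPM in controls, and was not called (log2 fold change -3.04, SE 1.43, adjusted p = 0.10). Its lowest control lay below its highest KO library. The ubiquitous partners fell as the other subunits did, Cox6a1 by 1.04 (SE 0.21), Cox8a by 1.07 (SE 0.21), Cox6b1 by 1.13 (SE 0.21) and Cox7a2 by 1.42 (SE 0.20). Cox6b2, known from testis, fell by 0.69 (SE 0.13), and Cox4i2, a weakly expressed isoform linked to low oxygen, by 1.08 (SE 0.34). Ndufa4l2, the partner of Ndufa4 that is induced in low oxygen, was not called, with a log2 fold change of -0.44 (SE 0.19). As a share of Ndufa4 and Ndufa4l2 TPM it was 4.8 to 6.37% in Pkd1 KO libraries and 2.47 to 3.0% in Pkd1 controls.

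Levels of brown fat RNA differed between libraries. Ucp1, the uncoupling protein that defines brown fat, was at 7.48, 0.161 and 1.11 CPM in Pkd1 KO libraries and 184, 239 and 27.8 CPM in Pkd1 controls. It was at 0.654, 0.0651 and 136 CPM in Cep120 KO libraries and 90.6, 132 and 193 CPM in Cep120 controls. Cox8b was low in the same Cep120 KO libraries as Ucp1, with 0.0769, 0.13 and 15.4 CPM in Cep120 KO libraries against 9.53, 15.5 and 28 CPM in Cep120 controls. Cox7a1 followed Ucp1 there only in part, with 16.3, 12.2 and 29.6 CPM in Cep120 KO libraries against 22.3, 24 and 45.2 CPM in Cep120 controls. Cox6a2 did not follow Ucp1 there, with 1.12 CPM in Cep120 KO 1 against 0.504, 0.773 and 0.609 CPM in Cep120 controls. Over the list of 10 fat markers, 2 were called higher and 1 (Ucp1) lower of 9 tested in the Pkd1 comparison. Over all genes 22.1% were called higher and 22.4% lower, so these counts are near the shares of all genes. Summed levels of the fat markers were 50.8 to 985 CPM in Pkd1 KO libraries and 306 to 1070 CPM in controls. The 10 muscle markers summed to 6.8 to 10.9 CPM in Pkd1 KO libraries and 3.25 to 4.87 CPM in Pkd1 controls. Of 5 tested 2 were called higher, against 22.1% of all genes, a count that rests on few genes. Tnnt2, troponin T of the heart, had 5.96, 3.61 and 5.2 CPM in Pkd1 KO libraries against 0.879, 1.51 and 1.44 CPM in controls, and the actin gene Acta1 was the other. Ckm, the muscle creatine kinase, was at no more than 0.21 CPM in any library. How far fat attached to the kidneys bears on Cox8b and Cox7a1 was not tested.

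**Figure D2:**
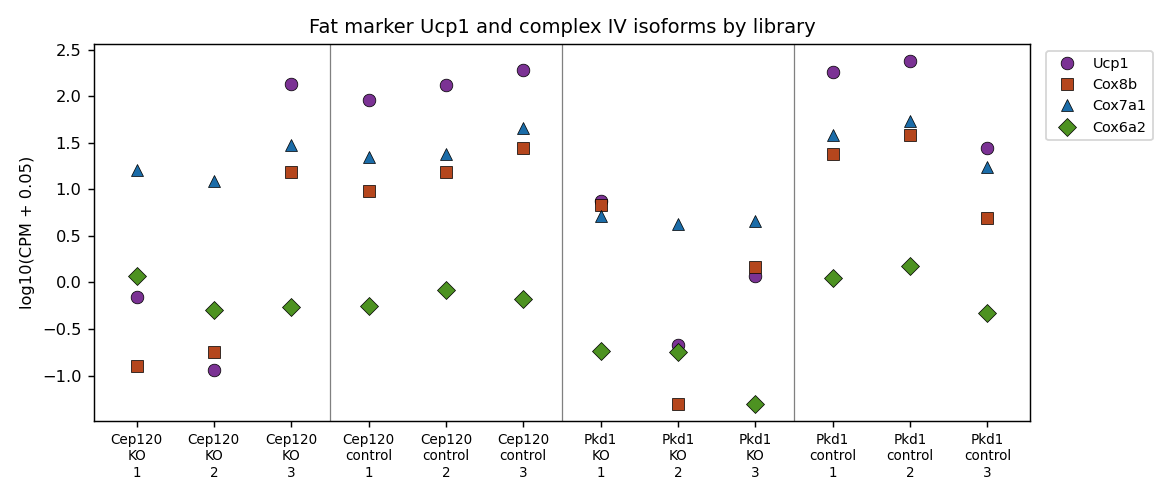
Level of the brown fat marker Ucp1 and of the complex IV isoforms Cox8b, Cox7a1 and Cox6a2 in each library, as log10 of CPM plus 0.05 (y axis), with libraries by group along the x axis. Ucp1 and Cox8b are low together in Cep120 KO 1 and 2 and in Pkd1 KO 2 and 3, and Pkd1 control 3 is the lowest control for both.

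Cox7a2l (ENSMUSG00000024248) was the exception in direction. Its protein, related in sequence to the Cox7a subunits, helps to join complexes III and IV into supercomplexes. It had 425, 454 and 391 CPM in Pkd1 KO libraries and 291, 377 and 256 CPM in Pkd1 controls, so all 3 Pkd1 KO libraries lay above the controls by a small margin. The log2 fold change was 0.46 (SE 0.14, edgeR adjusted p = 0.018). The call ended without Pkd1 KO 1, Pkd1 KO 2, Pkd1 control 1 or Pkd1 control 3 in turn, where the adjusted p was 0.057 to 0.083. Cox7a2l made up 49.4 to 56.2% of the TPM of Cox7a1, Cox7a2 and Cox7a2l together in Pkd1 KO libraries, against 20.9 to 24.0% in Pkd1 controls. The share was 21.1 to 25.6% in Cep120 KO libraries and 18.7 to 23.7% in Cep120 controls.

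Complex V, the ATP synthase, had the lowest median fold change of the 5 complexes, -1.28, and 16 of its 17 genes were called lower. Its catalytic subunits Atp5b and Atp5a1 fell by 1.14 (SE 0.19) and 0.95 (SE 0.17), and Atp5b had 1030, 1280 and 1240 CPM in Pkd1 KO libraries against 2870, 3020 and 1920 CPM in Pkd1 controls. Atp5k, subunit e of the membrane part, had 74.7, 79.2 and 83 CPM against 254, 337 and 188 CPM in controls, and fell by 1.72 (SE 0.24). Atp5j, known as coupling factor 6, fell by 1.44 (SE 0.20), and Atp5mpl, a small proteolipid of the complex, by 1.48 (SE 0.20).

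The genes Atp5g1, Atp5g2 and Atp5g3 encode the same mature c subunit of the rotor, each behind its own import sequence, and they moved by unlike amounts. Atp5g1 (ENSMUSG00000006057) had 172, 223 and 229 CPM in Pkd1 KO libraries and 767, 1020 and 590 CPM in Pkd1 controls, and fell by 1.93 (edgeR adjusted p = 2.6e-05, SE 0.22), the smallest p of all 93 genes. Atp5g3 had 298, 336 and 354 CPM against 816, 1070 and 624 CPM in controls, and fell by 1.35 (SE 0.20). Atp5g2 had 112, 138 and 118 CPM against 146, 204 and 140 CPM in controls and was not called (log2 fold change -0.41, SE 0.17, adjusted p = 0.064). As shares of their summed TPM, Atp5g1 took 31.1 to 34.0% in Pkd1 KO libraries against 46.5 to 47.5% in Pkd1 controls, and Atp5g2 took 19.7 to 22.7% against 9.61 to 12.1%. In the Cep120 line Atp5g1 took 48.8 to 53.2% in Cep120 KO libraries and 48.3 to 49.9% in Cep120 controls.

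**Figure D3:**
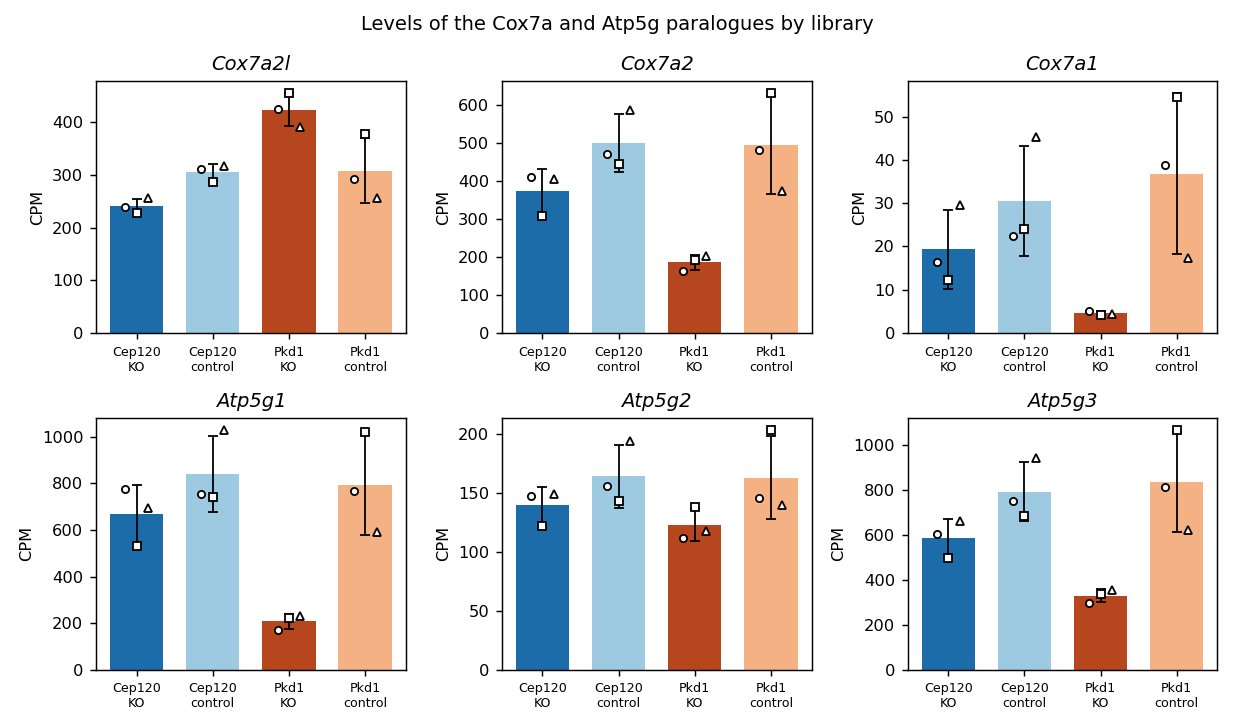
Level in CPM (y axis, from 0) of the Cox7a and Atp5g paralogues in the 4 groups; bars are means, error bars SD of 3 libraries, and circle, square and triangle are replicates 1, 2 and 3. Cox7a2l is higher in Pkd1 KO (391 to 454 CPM) than in Pkd1 controls (256 to 377 CPM), whereas Atp5g1 is lower (172 to 229 CPM against 590 to 1020 CPM).

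Levels per length spanned a wide range within the set. In Pkd1 KO kidneys the 4 highest genes by mean TPM were Cox4i1 (2520 ± 106), Cox6a1 (1850 ± 115), Uqcr10 (1510 ± 90.2) and Cox6c (1280 ± 42.6), each apart from the next by more than its SD (n = 3). In Pkd1 controls the same 4 genes led in the same order, at 3300 ± 241, 3260 ± 337, 3030 ± 389 and 2790 ± 405 TPM, and neighbours there did not differ beyond their SD. The first places changed in Cep120 controls, where Cox6a1 came before Cox4i1 (3330 against 3320 TPM). Lower in the order ranks shifted, with Ndufa6 at place 5 in Pkd1 KO kidneys and place 21 in Pkd1 controls. At the bottom stood Cox6a2 (0.212 TPM in Pkd1 KO and 1.96 TPM in Pkd1 controls), Cox5b-ps (7.16 and 16.7 TPM) and Cox4i2 (7.72 and 13.8 TPM). Summed TPM of complex V was 11200 ± 618 in Pkd1 KO libraries and 22400 ± 2470 in Pkd1 controls (SD, n = 3 each), a ratio of 0.5, and the ratios were 0.571 for complex I, 0.501 for II, 0.513 for III and 0.554 for IV.

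Scores by library showed how the groups spread. Each score averages, over the genes of a complex, the deviation of log2 CPM from the mean of the 6 controls. Over all 93 genes it was -1.18, -1.09 and -1.04 in Pkd1 KO libraries and 0.03, 0.39 and -0.38 in Pkd1 controls. It was -0.25, -0.63 and -0.22 in Cep120 KO libraries and -0.13, -0.16 and 0.26 in Cep120 controls. The Pkd1 KO libraries lay close together, while Pkd1 control 3 was the lowest control and lay below Cep120 KO 1 and 3. The complexes moved together within a library, so that Cep120 KO 2 was the lowest Cep120 library for each of the 5.

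**Figure D4:**
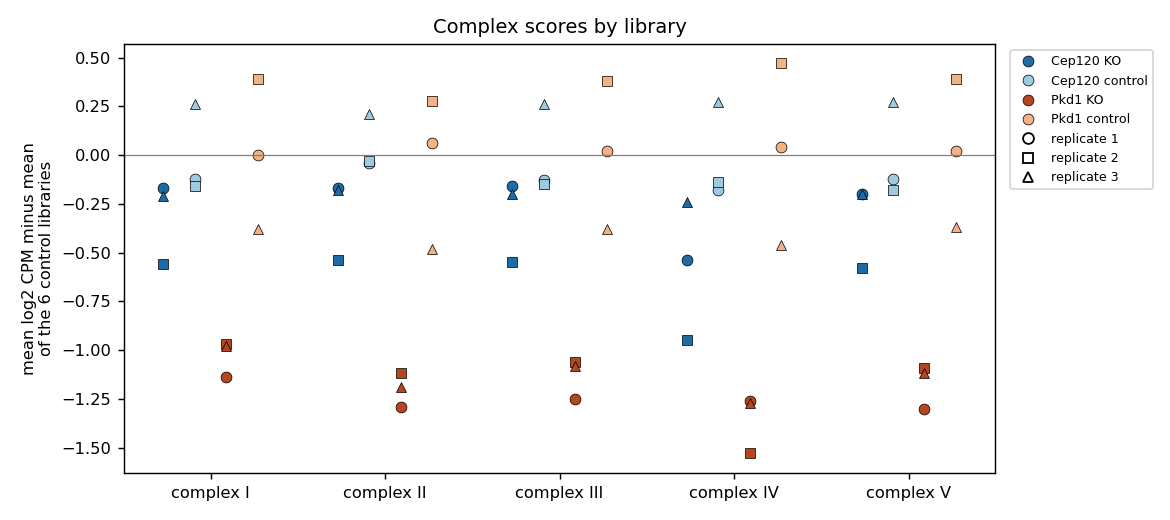
Score of each complex in each library (y axis, mean log2 CPM minus the mean of the 6 control libraries), with complexes along the x axis and groups by colour. The 3 Pkd1 KO libraries lie at or below -0.97 in all 5 complexes, and Cep120 KO 2 is the lowest Cep120 library in each.

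The 13 subunits encoded by the mitochondrial genome fell as well in Pkd1 KO kidneys, all 13 being called lower. Transcripts of the mitochondrial genome made up 3.14 to 3.47% of counts in Pkd1 KO libraries and 6.58 to 9.14% in Pkd1 controls. The 7 complex I subunits of this genome had a median log2 fold change of -1.75, the 3 of complex IV -1.24, and the 2 of complex V -1.11. The single complex III gene, mt-Cytb, fell by 1.47 (SE 0.23).

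Other genes of the pathway were counted by list, to be read against the 22.4% of all genes called lower and 22.1% called higher. All 6 genes listed under complex V assembly and inhibition fell, among them Atpif1, the inhibitor of the ATP synthase (log2 fold change -1.16, SE 0.17). Dmac2 (-0.72) was counted in this list and not in that of complex I. Of 10 complex I assembly factors outside the name rule 8 fell, led by Acad9 (-1.26) and Ecsit (-1.06). Complex III assembly factors fell in 4 of 6, with Lyrm7 at -1.60 and Bcs1l at -1.21, and complex II assembly factors in 1 of 4 (Sdhaf4, -0.68), a share near that of all genes. Of 23 complex IV assembly factors 14 fell, including Lrpprc, which stabilizes mitochondrial transcripts (-1.47), and Taco1 (-1.14), 8 were not called, and Surf1, named after its value was seen, rose by 0.30 (SE 0.12, adjusted p = 0.048). Upstream of the chain, 15 of 16 genes of the tricarboxylic acid cycle and of pyruvate dehydrogenase (Pdha1, Pdhb and Dlat) fell. Suclg1, a subunit of succinyl-CoA ligase, was at -1.41. Citrate synthase, Cs, was the enzyme not called (-0.39, SE 0.15, adjusted p = 0.051). Coenzyme Q synthesis fell in 10 of 11 genes, led by Pdss1 (-1.92), which makes the side chain. Of 12 outer membrane and import genes 9 fell, with the chaperonin Hspd1 at -1.42 and Vdac1 at -0.74. Tmem70 counts in the assembly lists of complexes I and V, and Higd1a in those of complex IV and of hypoxia targets.

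Regulators of mitochondrial biogenesis were split. Of 16 genes 9 fell, 1 rose and 6 were not called. The coactivators Ppargc1a and Ppargc1b fell by 1.51 (SE 0.18) and 1.39 (SE 0.19), and of the receptors that bind with them Esrra fell by 1.72 (SE 0.22), Esrrb fell by 1.58 (SE 0.30) and Esrrg fell by 1.15 (SE 0.13). Tfam and Tfb1m, factors of the mitochondrial genome, fell by 0.59 (SE 0.13) and 0.89 (SE 0.18), and the GABP subunits Gabpa and Gabpb1 by 0.44 (SE 0.13) and 0.56 (SE 0.19). Nrf1, the factor behind the NRF-1 motif, rose by 0.51 (SE 0.14, adjusted p = 0.010). Of 13 targets of the hypoxia-inducible factor 6 fell and 2 rose, against 22.4% lower and 22.1% higher over all genes. The share that rose was near that of all genes. Vegfa fell by 1.49 (SE 0.18), Car9 by 2.81 (SE 0.39) and Pgk1 by 0.85 (SE 0.16), whereas the glucose transporter Slc2a1 rose by 0.57 (SE 0.14) and Adm by 0.51 (SE 0.16).

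**Figure D5:**
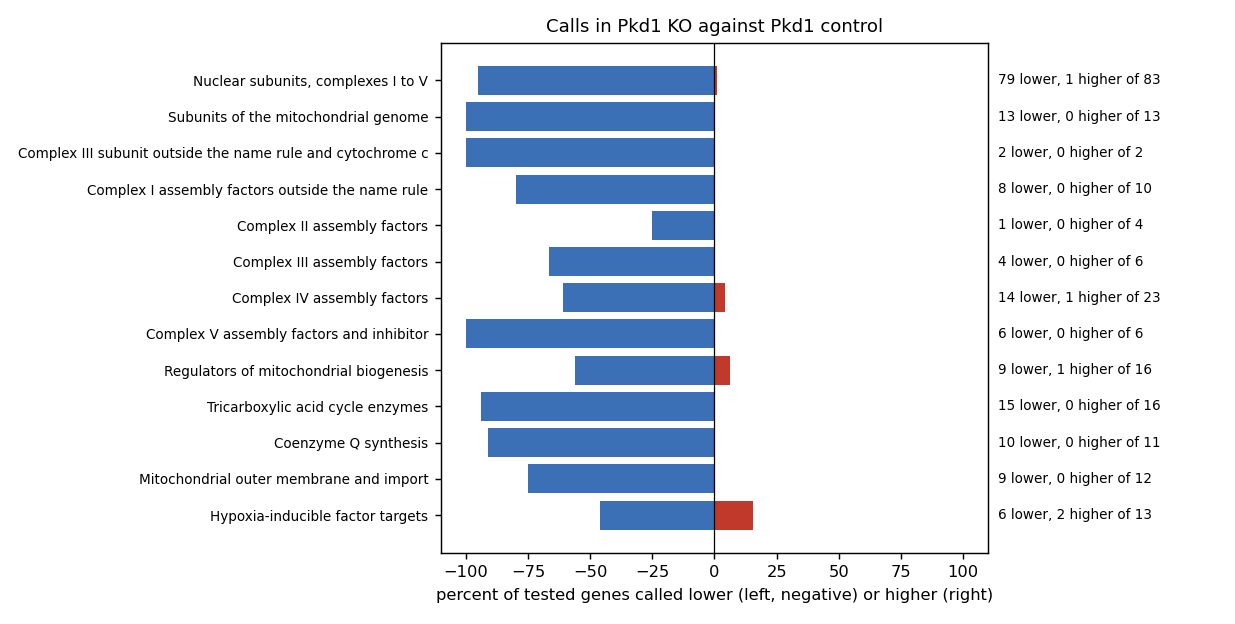
Percent of tested genes called lower (left of 0) or higher (right of 0) in Pkd1 KO against Pkd1 control (x axis) for nuclear and mitochondrially encoded subunits and for 11 related lists (y axis), with counts at the right. Nuclear subunits of complexes I to V show 79 lower and 1 higher of 83, subunits of the mitochondrial genome 13 lower of 13, and biogenesis regulators 9 lower and 1 higher of 16.

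In Cep120 KO kidneys none of the 93 genes was called, and their fold changes lay just below 0. The median log2 fold change was -0.32, against 0.01 over all genes tested, and 92 of 93 genes had a fold change below 0, Cox6a2 being above. By edgeR no gene of the 19890 passed (0% called), DESeq2 and limma voom called none of the 93, and 4 of the 93 had an unadjusted p under 0.05, against 6.04% of all genes. In 29 of the 93 (31.2%) the 3 Cep120 KO libraries lay below the 3 controls, against 7.88% of all genes. Cox7a2l had 238, 227 and 256 CPM in Cep120 KO libraries and 311, 286 and 316 CPM in Cep120 controls (log2 fold change -0.34, SE 0.14, edgeR adjusted p = 0.76). Atp5g3 had 607, 496 and 661 CPM against 752, 687 and 943 CPM in controls (log2 fold change -0.43, SE 0.19, edgeR adjusted p = 0.76). In both genes the groups did not overlap, yet neither passed the adjustment. Summed TPM was 78700, 65900 and 77500 in Cep120 KO libraries and 76000, 74900 and 91000 in Cep120 controls, which overlap, with a ratio of means of 0.918. The median moved with single libraries and lay between -0.40 (without Cep120 control 1) and -0.17 (without Cep120 control 3), with -0.22 without Cep120 KO 2. With a term for the number of genes detected it was -0.14, and with the term for Xist -0.23. No gene of any pathway or cell marker list was called in this comparison, and proximal tubule markers summed to 5620 to 6890 CPM in Cep120 KO libraries against 5320 to 6930 CPM in controls.

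Whether the effects of the lines differ was tested as the Pkd1 effect minus the Cep120 effect, which share no library. Of 93 genes 46 were lower and 1, Cox7a2l, higher, while 46 were not called. Over all genes 14.2% were called lower, 13.9% higher and 28.1% in either direction. The median difference was -0.80, against -0.06 over all genes. Atp5g1 differed by -1.59 (SE 0.31, edgeR adjusted p = 0.0025), Ndufab1 by -1.33 (SE 0.26) and Ndufs1 by -1.20 (SE 0.26). Cox7a2l differed by 0.80 (SE 0.20, edgeR adjusted p = 0.010), with opposite signs in the lines. All 4 complex II genes were called, at an edgeR adjusted p of 0.0495 at most. The call was lost in 15 alternative fits for Sdha, 13 for Sdhb and 11 for Sdhd, and held in all 26 for Sdhc. By complex, 16 of 36 genes of complex I, 4 of 4 of II, 5 of 8 of III, 8 of 18 of IV and 12 of 17 of V were lower. The count moved with single libraries: it was 22 to 24 without Cep120 KO 1, Cep120 KO 3, Cep120 control 1, Cep120 control 2, Pkd1 KO 1 or Pkd1 control 2, and 71 without Pkd1 control 3. With Cep120 controls 1 and 2 summed as 1 library it was 23. Over all genes the fits that gave 22 to 24 called 4225 to 4990, and that with summed controls 4429. The fit without Pkd1 control 3 called 5781, and the fit of all libraries 5598. If near 19890 genes were tested, the members' share in either direction in the fits of 22 to 24 was near that of all genes. The members' calls in those fits were 21 to 23 lower and 1 higher. Calls over all genes were not split by direction there.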

How the data were processed

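RNA of 12 whole-kidney libraries was measured by sequencing. The tools named in the submitters' processing notes are STAR (2.5.1a), featureCounts (1.4.6-p5) of Subread, Salmon (0.8.2) and bcl2fastq, with mm9 as the build; no source used here ties a tool to a table or states strand use. The authors' estimated counts per gene, not whole for 21.6% of genes, were rounded before testing. The authors' deposited TPM gave levels per length, and their deposited moderated log2 CPM, of unstated prior count, served only as an alternative. Of 55774 table lines, 287 repeats were dropped. Tables per transcript or otherwise scaled were not analysed here.

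Groups came from titles and genotype labels. edgeR 4.0.16 in R 4.3.3 (filterByExpr, 19890 genes; TMM; a quasi-likelihood fit of 4 groups in 12 libraries; common biological coefficient of variation 0.238) gave all comparisons, with Benjamini-Hochberg adjustment over all genes. CPM are scaled by TMM. The fit was tested on simulated counts. Depth limits weak genes, and such limits cover counting error only. Alternatives used limma 3.58.1, DESeq2 1.42.0, other scalings and filters, single libraries left out, a replicate block, and terms for Xist and genes detected.

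The members, lists and tests were chosen with earlier results of these data known. Named genes were the smallest p values per complex, core subunits, isoforms, the gene moving against the rest and up to 3 genes of each list; others named were chosen after their values were seen. Ndufa4 and Ndufa4l2 were counted in complex IV. The name rule also matched 16 pseudogenes, so reads of members with near-identical copies may be split, and their values are uncertain.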

Additional observations from a re-analysis of the deposited data

Results flagged for a closer look

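The effects of the lines differed for 47 of the 93 genes by the test of the difference itself (edgeR, adjusted p under 0.05). Over all genes 28.1% were called in either direction. The count of 47 became 22 to 71 when a library was left out, and 24 with the Xist term. Of the 47 genes, 26 are among the genes named by rule. The values given here are log2 differences, the Pkd1 effect minus the Cep120 effect, and none is given an explanation. In complex I they were -1.46 for Ndufc1, -1.33 for Ndufab1, -1.20 for Ndufs1 and -1.17 for Ndufa5, with -1.02 for the assembly factor Ndufaf4. In complex II they were -0.72 for Sdha, -0.91 for Sdhb, -0.91 for Sdhc and -0.86 for Sdhd. In complex III they were -1.20 for Uqcrb, -1.05 for Uqcrq, -1.0 for Uqcrc1 and -0.98 for Uqcr11. In complex IV they were -3.51 for Cox6a2, -2.33 for Cox7a1, -1.33 for Ndufa4, -1.13 for Cox7b, -0.99 for Cox7a2, -0.98 for Cox5a and 0.80 for Cox7a2l. In complex V they were -1.59 for Atp5g1, -1.35 for Atp5k, -1.21 for Atp5mpl, -1.13 for Atp5j, -0.92 for Atp5g3 and -0.80 for Atp5b. Cox6a2 was under 1.5 CPM in every library. Cox7a1 and the brown fat marker Ucp1 were both lower in all Pkd1 KO libraries than in Pkd1 controls. In Cep120 KO 1 and 2, Cox7a1 was at 16.3 and 12.2 CPM where Ucp1 was at 0.654 and 0.0651 CPM. The part of fat in these values was not tested.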

How the results depend on the processing

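In the Pkd1 comparison 79 to 93 members were called under every alternative but the Xist term, which called 6 (6 lower, 0 higher, Cox7a2l included among those lost), and leaving out a library gave 80 to 90 (79 to 90 lower, 0 to 1 higher). Over all genes the Xist term called 2002 and the other alternatives 5938 to 9461. The higher call of Cox7a2l was also lost, leaving 0, at an adjusted p of 0.01, with only the 6 libraries of the line, and without both replicate 3 controls. In the Cep120 comparison the count was 0 in all but the fit with no filter on low counts, which called 2, both lower. That fit called 344 over all genes. For the difference the count of 47 became 11 at an adjusted p of 0.01 (11 lower, 0 higher), 24 with the Xist term (23 lower), 72 on the deposited log2 CPM (71 lower), 82 with the term for genes detected (81 lower), 81 without both replicate 3 controls (80 lower) and 23 with Cep120 controls 1 and 2 summed (22 lower), an alternative added after seeing the data. Of all 19890 genes 2751 were called in either direction at an adjusted p of 0.01. The members' share in either direction was not above that of all genes there. With the Xist term 4259 genes were called in either direction, a share near that of the members. Neither count over all genes was split by direction. Leaving out a library gave 22 to 71 (21 to 70 lower), and the median was -1.11 with the detected-gene term and -1.11 without both replicate 3 controls, against -0.80 as reported. The causes were not tested.

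Same-numbered KO and control libraries correlated at -0.136 to 0.178 in their deviations, and those of unlike number at -0.2 to 0.129. With 3 libraries a group these values do not settle whether replicate numbers pair the samples. With the replicate block 86 members were called in the Pkd1 comparison and 0 in the Cep120 comparison, and 27 for the difference (26 lower). Over all genes the block gave 7804 calls in the Pkd1 comparison and 4363 for the difference. Some signs reversed, all in values that were not called. In the Cep120 comparison Cox6a2 was -0.01 with limma voom, -0.34 with the Xist term and -0.40 to 0.35 without a library, Ndufaf4 0.01 and Uqcrb 0.022 with the Xist term, and Uqcrc1 0.035 on the deposited log2 CPM and 0.042 with the detected-gene term. With the Xist term Cox8b was 4.08 in the Pkd1 comparison and 4.28 for the difference, and Ndufa4l2 0.004 for the difference. Without a library the difference was -3.30 to 4.26 for Cox8b and -0.26 to 0.093 for Ndufa4l2. Upper quartile scaling moved the median of all genes in the difference to -0.17, and the members lay -0.74 from it. The deposited log2 CPM moved that median in the Cep120 comparison to 0.15, and the members lay -0.33 from it.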
